A study of Homo sapiens with 4 samples.

Results

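Laminins are the cross-shaped glycoproteins that form the first network of a basement membrane. Each molecule joins 1 α, 1 β and 1 γ chain along a coiled coil before it is secreted, and the end of the α chain binds integrins and dystroglycan on the cell. The α5 chain with β1 or β2 and γ1 belongs to the basement membranes of the kidney tubule and glomerulus, and the α3 chain with β3 is part of the laminin that anchors epithelia at hemidesmosomes. The 7 laminin chain genes described here (LAMA3, LAMA4, LAMA5, LAMB1, LAMB2, LAMB3 and LAMC1) were found by symbol among the 59409 genes of the deposited table, and 6 of the 7 passed the filter on low values. LAMA1, LAMA2, LAMB4 and LAMC3 are given beside them.

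RNA was from 786-O, an established human clear cell renal carcinoma line without functional VHL, grown in serum. A Cas9-expressing clone was first made with LentiCas9-Blast virus. The control group was 2 libraries labelled negative control with genotype WT, whose columns in the table carry the name Cas9. The knockout group was 2 libraries labelled DEK KO, from Cas9-expressing cells infected with LentiGuide-Puro viruses carrying guides against DEK and sorted as single cells, so each library may stand for 1 clone. The labels do not tell which clone a library came from, nor whether libraries of a group were separate cultures, so p-values reflect library-to-library spread, which may be technical only. DEK is a chromatin protein with histone chaperone activity. DEK itself measured 95.0 and 76.3 TPM in the controls against 31.4 and 15.7 TPM in the knockouts (log2 fold change -1.89, limma adjusted p = 0.030), and it was lowest in knockout 2.

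TPM (transcripts per 1000000 transcripts) is a level corrected for gene length and relative to the other genes of its library. Comparing different genes by TPM rests on the gene lengths used, which the sources used here do not give. The estimated depth was 35.8 to 40.1 M reads a library (M, 1000000 reads). All 11 markers of renal tubule and clear cell carcinoma were at 1 TPM or more in every library, with PAX8 and VIM among them, whereas leukocyte, endothelial and hepatocyte markers reached 0.521 TPM at most. Of the 5 fibroblast markers only COL1A1 passed 1 TPM, at up to 2.33 TPM, and COL3A1 and PDGFRA were listed at 0 throughout.

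In the knockout the β chains LAMB3 and LAMB2 rose and the α chain LAMA3 fell. LAMB3 stood far apart from the other chains with a 13.0-fold higher level. LAMB1 and LAMA5 lay higher and LAMC1 lower in both knockouts without passing the test, and LAMA4 was close to 0. Of the 6 chains tested 2 were called higher and 1 lower (limma on log2(TPM + 1), Benjamini-Hochberg adjusted p under 0.05), where 17.7% of all 15815 tested genes were called, 9.06% higher and 8.67% lower. In each of the 6 chains the groups did not overlap, which was also true of 68.3% of all tested genes. The median log2 fold change of the 6 chains was 0.58, beside -0.06 over all tested genes, and it was 0.36 without knockout 2. The same median was 0.71 without knockout 1, 0.60 without control 1 and 0.56 without control 2. Calls varied with the libraries kept, as given at the end.

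**Figure D1:**
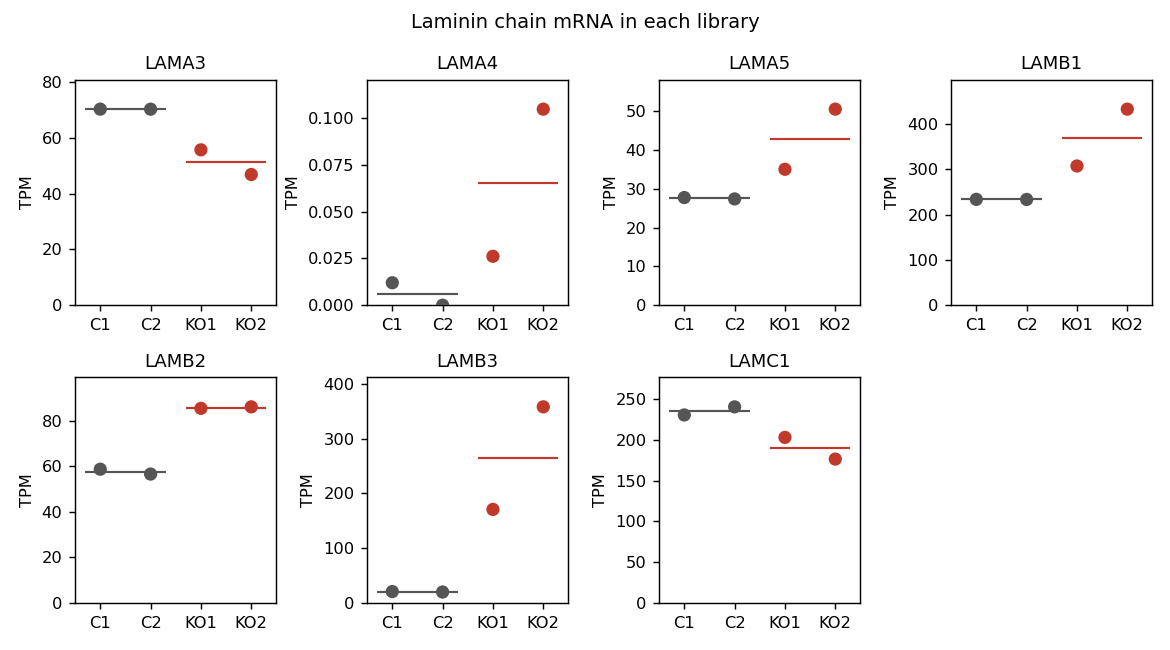
TPM of the 7 laminin chains in each library, each panel with its own linear axis from 0 (C1 and C2, controls in grey; KO1 and KO2, DEK knockouts in red; lines, group means). LAMB3 stands near 20.3 TPM in both controls and reaches 171 and 358 TPM in the knockouts, while the LAMA4 axis ends near 0.1 TPM.

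LAMB3, the β3 chain, is found with α3 and is encoded on the minus strand of chromosome 1 from 209614870 to 209652466 (GRCh38). Its level was 20.7 and 19.9 TPM in the controls and 171 and 358 TPM in knockout 1 and knockout 2. Both knockouts were thus far above both controls, and knockout 2 was 2.10 times as high as knockout 1. The mean rose from 20.3 ± 0.552 to 264 ± 132 TPM (SD, n = 2 each). Its log2 fold change was 3.54, with SE 0.35 and a limma adjusted p of 0.014. The rise was 8.42-fold in knockout 1 and 17.7-fold in knockout 2. LAMB3 had the largest log2 fold change of the 1603 tested genes of chromosome 1 and ranked 15th from the top among the 15815 tested genes. Without control 1 its adjusted p was 0.061 and without control 2 it was 0.066, although the log2 fold change stayed at 3.57 and 3.52.

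The promoter windows of LAMB3 and LAMA3 are shown because the products of both genes meet in the same trimer while their mRNAs moved in opposite directions. They were taken from RefSeq (GRCh38.p14), with 250 bases before and 50 after each start, and all 7 chains had at least 1 window there. LAMB3 has 3 listed starts. The first stretch, chr1:209652467-209652616 on the minus strand, leaves 41 bases before the outermost start. The second, chr1:209651395-209651544, leaves 20 bases before a start that lies 1.09 kb inside the gene. Both leave out annotated exons. Capitals mark matches to TGANTCA, the letters of an AP-1 site.
LAMB3 outer start: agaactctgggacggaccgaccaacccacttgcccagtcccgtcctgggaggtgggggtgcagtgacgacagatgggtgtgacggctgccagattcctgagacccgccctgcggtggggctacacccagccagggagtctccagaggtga
LAMB3 inner start: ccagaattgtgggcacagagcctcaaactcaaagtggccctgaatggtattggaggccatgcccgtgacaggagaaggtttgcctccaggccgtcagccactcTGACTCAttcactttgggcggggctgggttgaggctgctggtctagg

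The single LAMB3 match began 67 bases before the inner start. The LAMA3 window, at a start 184 kb inside the gene, held 2 matches, which began 125 and 69 bases before that start and lie within an annotated exon. They are printed with 11 bases on either side, from chr18:23872884-23872912 and chr18:23872940-23872968 on the plus strand.
LAMA3 distal match: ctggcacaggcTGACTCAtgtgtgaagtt
LAMA3 proximal match: ccttcctcaccTGAGTCAggcaggcccgg

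No other chain had such a match. Searched on both strands, TGANTCA occurred in 7.71% of all 35116 windows of 300 bases. NCGTG, which holds the core of the hypoxia response element, occurred in 66.9% of windows and in those of LAMA5, LAMB2 and LAMC1 and the inner window of LAMB3. GGGCGG, the GC box, occurred in 45.0% of windows and in those of 6 of the 7 chains, LAMA4 being the exception, with 5 matches in LAMA5 and 4 in LAMB1. A match is only a description of these letters, and gene-level TPM does not show which start was used.

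The genes nearest to LAMB3 were looked at after the LAMB3 values were known. Of the 5 tested within 100 kb, CAMK1G, HSD11B1 and AL023754.1 were under 1 TPM in both controls and entered the test through the knockouts alone. Their direction was thus fixed by the filter, and their values are given as a description with no test. G0S2, an inhibitor of adipose triglyceride lipase that starts 23.0 kb away, was at 11.2 and 11.3 TPM in the controls against 42.2 and 262 TPM in the knockouts. Both knockouts lay above both controls and were uneven, and it did not pass the test (log2 fold change 3.12, SE 0.84, adjusted p = 0.065). HSD11B1-AS1, which spans G0S2 on the other strand, did not pass either (2.13, adjusted p = 0.066). CAMK1G, a calmodulin-dependent kinase gene whose end is 0.932 kb from that of LAMB3, was at 0.242 and 0 TPM in the controls against 1.29 and 2.0 TPM in the knockouts. HSD11B1, which encodes a cortisone reductase, was at 0.393 and 0.442 TPM in the controls against 1.5 and 2.54 TPM in the knockouts. The noncoding AL023754.1 was at 0.916 and 0.221 TPM in the controls against 4.12 and 2.78 TPM in the knockouts.

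Farther out, to 500 kb, C1orf74 had a log2 fold change of 0.00, UTP25 of -0.11 and LINC01698 of -0.72, none of them called. Over the 125 tested genes within 10 Mb the median was -0.12, with 9 called higher and 13 lower.

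**Figure D2:**
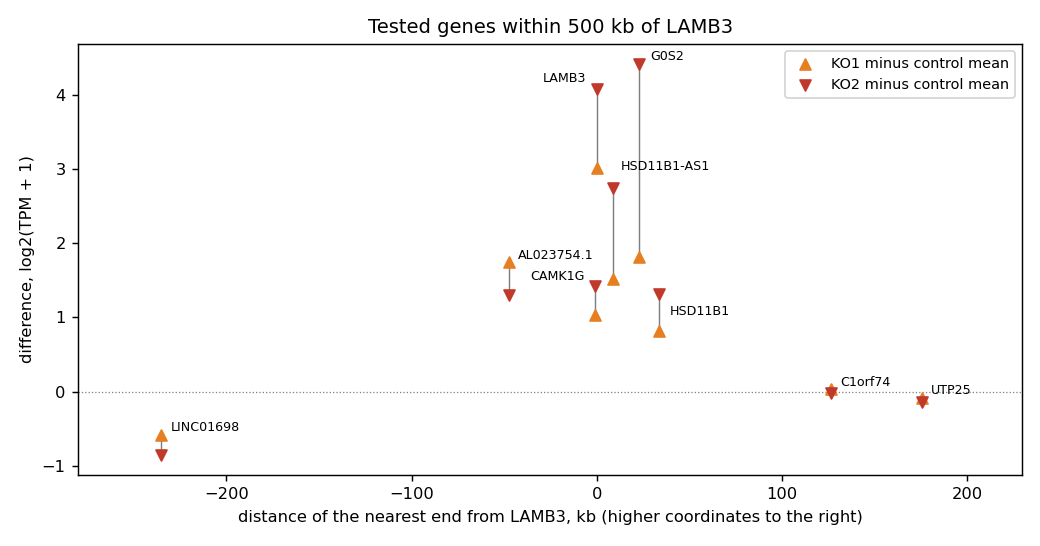
Difference of each knockout library (KO1, KO2) from the control mean on the log2(TPM + 1) scale for LAMB3, set at 0 kb, and for the tested genes within 500 kb, against the distance of their nearest end. LAMB3 and G0S2 lie highest, CAMK1G, HSD11B1 and AL023754.1 are shown although the filter fixed their direction, and C1orf74 and UTP25 lie near 0.

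The genes whose centred log2(TPM + 1) values over the 4 libraries were nearest to those of LAMB3 were KRT79, LINC02376 and TMEM158, at Euclidean distances of 0.155, 0.227 and 0.267. KRT79, a keratin gene, was at 1.77 and 1.84 TPM in the controls against 20.5 and 41.0 TPM in the knockouts. TMEM158 was at 4.72 and 5.39 TPM in the controls against 54.2 and 120.4 TPM in the knockouts. LINC02376 was under 1 TPM in both controls, at 0.255 and 0.123 TPM, and entered the test through the knockouts. As in LAMB3, knockout 2 was about 2 times as high as knockout 1 in these genes. This likeness follows from how they were chosen and rests on 4 libraries only.

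LAMA3 went the other way from LAMB3. It encodes α3, the α chain found with β3 (chromosome 18, 23689443 to 23956222). Its level was 70.4 and 70.3 TPM in the controls against 55.8 and 46.9 TPM in the knockouts. It fell from 70.3 ± 0.0115 to 51.3 ± 6.26 TPM (SD, n = 2), 1.37-fold lower (log2 fold change -0.45, SE 0.11, limma adjusted p = 0.049). Both knockouts lay under both controls, and the controls were nearly equal. This call is at the edge of the threshold: it was lost under 7 of the 10 other ways of processing all 4 libraries, for example at an adjusted p of 0.071 with median ratio scaling, and without control 1 (adjusted p = 0.26) or control 2 (0.23).

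In the controls LAMB3 stood at 0.294 and 0.283 times the level of LAMA3, and in the knockouts at 3.06 and 7.63 times. By TPM, LAMA3 was thus the higher of these 2 mRNAs in both controls, and LAMB3 in both knockouts, given the gene lengths used.

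LAMB2 rose evenly. It encodes β2, the β chain of the mature glomerular basement membrane (chromosome 3, 49121114 to 49133118, minus strand). Its level was 58.8 and 56.7 TPM in the controls and 85.6 and 86.2 TPM in the knockouts. The mean rose 1.49-fold from 57.7 ± 1.51 to 85.9 ± 0.466 TPM (log2 fold change 0.57, SE 0.07, adjusted p = 0.018), with the knockouts closer together than in any other chain tested. Without control 1 or without control 2 the adjusted p was 0.14. The pseudogene LAMB2P1, from which reads could be misassigned, reached 0.539 TPM at most.

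LAMB1, the widespread β1 chain (chromosome 7, 107923799 to 108003255, minus strand), was at 233.9 and 233.7 TPM in the controls against 308 and 433 TPM in the knockouts. Both knockouts lay above the controls, 1.58-fold on average, and the difference did not pass the test (log2 fold change 0.64, SE 0.17, adjusted p = 0.062). The log2 fold change was 0.39 without knockout 2 and 0.89 without knockout 1. Such a fit takes the spread between libraries from the controls only, which were nearly equal, so no call is read from it. LAMB1 overlaps DLD over 7932 bases on the other strand, and the use of strand in counting is not given in the sources used here. DLD was at 77.8 and 74.3 TPM in the controls against 58.1 and 72.4 TPM in the knockouts. The part of its reads in the LAMB1 values was not tested.

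LAMA5, the α5 chain (chromosome 20, 62307955 to 62367312, minus strand), was at 27.7 and 27.4 TPM in the controls against 35.0 and 50.5 TPM in the knockouts. The log2 fold change was 0.59 (SE 0.18, adjusted p = 0.086) and did not pass the test. Without knockout 1 it was 0.85, and without knockout 2 it was 0.34. Its neighbour ADRM1 overlaps it by 908 bases on the other strand and was at 310 and 287 TPM in the controls against 347 and 423 TPM in the knockouts. Part of the LAMA5 reads could belong to that gene, and how many was not tested.

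LAMC1, the γ1 chain found in most laminins (chromosome 1, 183023460 to 183145592), was at 231 and 241 TPM in the controls against 203 and 177 TPM in the knockouts. At -0.31 on the log2 scale (SE 0.09, adjusted p = 0.073) it did not pass the test. Without knockout 1 the log2 fold change was -0.41, and without knockout 2 it was -0.21. With chromosome medians removed its log2 fold change was -0.15 (adjusted p = 0.16). The surrounding genes were lower to a like extent: the 65 tested genes within 10 Mb had a median of -0.38. Around the other chains the window medians were small, from -0.12 for LAMA3 and LAMB3 to 0.11 for LAMA5.

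**Figure D3:**
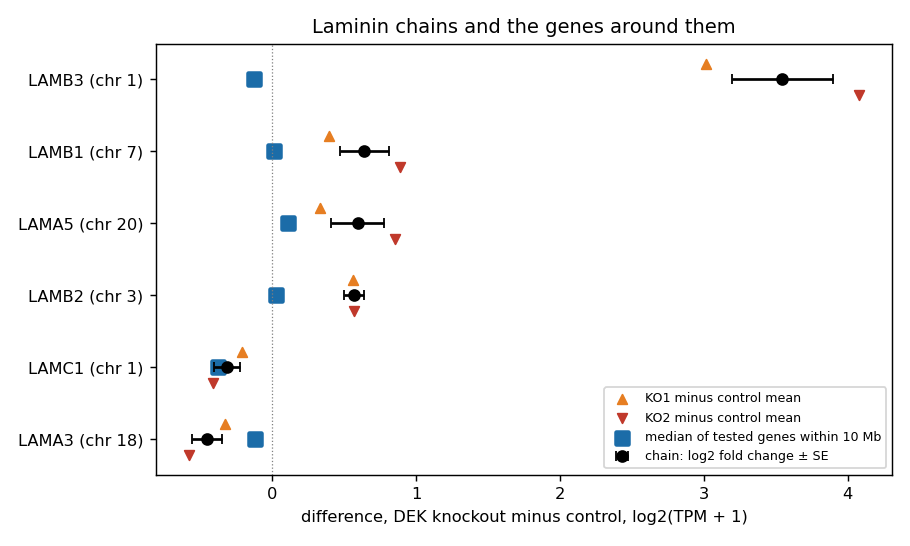
Log2 fold change of each tested laminin chain (black circles, bars ± SE) with the difference of each knockout library from the control mean (triangles) and the median of the tested genes within 10 Mb (blue squares). LAMC1 at -0.31 lies beside its window median of -0.38, and the other chains lie away from theirs.

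LAMA4, the α4 chain of endothelial and mesenchymal laminins, was at 0.0120 and 0 TPM in the controls against 0.0262 and 0.105 TPM in the knockouts. On the scale of its lowest value above 0 these were 1, 0, 2 and 9 steps, so the values rest on very few reads. A count of 0 in control 2 allows up to 0.0347 TPM when the limit is 3 such steps, counting error only. It did not enter the test, and with no filter on low values its log2 fold change was 0.08 (adjusted p = 0.52).

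LAMA1, LAMA2, LAMB4 and LAMC3 were also low. LAMA1, the α chain of embryonic basement membranes, was at 0.0803 and 0.116 TPM in the controls against 0.745 and 0.702 TPM in the knockouts. The knockouts were even and well above both controls, but all 4 values were under 1 TPM, and with no filter the adjusted p was 0.074. LAMA2, the α chain of muscle laminin, reached 0.355 TPM at most, LAMC3 0.180 TPM and LAMB4 0.169 TPM.

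Summed by class, the α mRNAs overlapped between the groups, and the β mRNAs were higher in both knockouts. The α chains summed to 98.3 and 98.1 TPM in the controls against 91.9 and 98.5 TPM in the knockouts. The β chains summed to 313 and 310.3 TPM in the controls against 564 and 878 TPM in the knockouts, 2.31-fold higher on average. The smallest p that an exact permutation of 2 against 2 libraries allows is 0.333, so sums and shares carry no test.

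The makeup within both classes shifted in both knockouts. LAMB3 held 6.59% and 6.41% of β chain TPM in the controls against 30.3% and 40.8% in the knockouts, while LAMB1 went from 74.6% and 75.3% to 54.6% and 49.4%. LAMA5 held 28.2% and 27.9% of α chain TPM in the controls against 38.1% and 51.3% in the knockouts, with LAMA3 making up nearly all the rest. Neither for LAMB3 nor for LAMA5 did the shares of the 2 groups overlap.

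**Figure D4:**
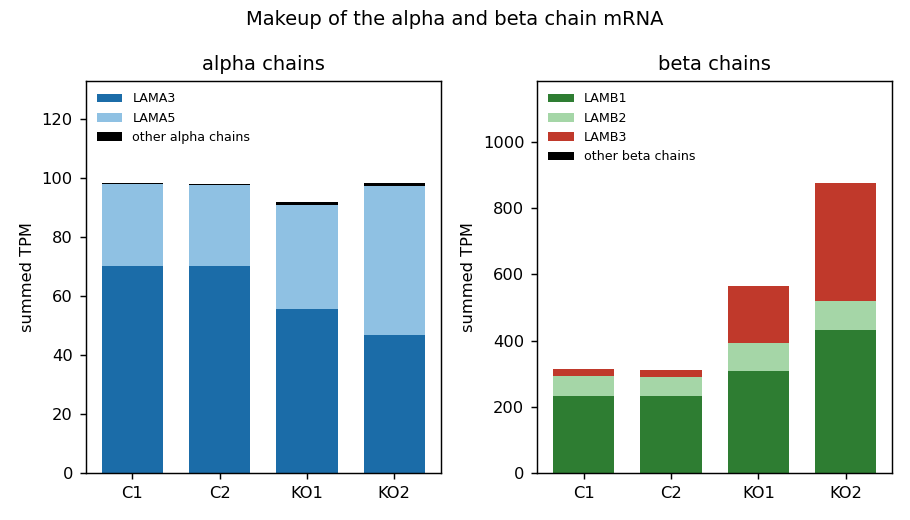
Stacked TPM of the laminin α and β chain genes in each library (C1 and C2, controls; KO1 and KO2, knockouts). The α total lies between 91.9 and 98.5 TPM, whereas the β total reaches 878 TPM in knockout 2 with LAMB3 as 40.8% of it.

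By level, LAMC1 and LAMB1 led in the controls with means of 236 and 234 TPM, and their libraries overlapped. LAMA3, LAMB2, LAMA5 and LAMB3 followed in that order, with no overlap between neighbours. In the knockouts the order was LAMB1, LAMB3, LAMC1, LAMB2, LAMA3 and LAMA5. There LAMB1 overlapped LAMB3 and LAMB3 overlapped LAMC1, as did LAMA3 with LAMA5. Knockout 2 lay farther from the controls than knockout 1 in LAMA3, LAMA5, LAMB1, LAMB3 and LAMC1, and slightly in LAMB2 (86.2 against 85.6 TPM). It lay farther for DEK itself too. It was also less like the controls over all tested genes on the log2(TPM + 1) scale. There its Pearson r with control 1 and control 2 was 0.941 and 0.946, and that of knockout 1 was 0.962 and 0.964. Whether the level of DEK bears on this was not tested.

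Lists of genes around laminin were compared next, and without control 1 or control 2 not 1 member of these lists was called, with 46 and 44 genes higher and 1 and 7 lower in all. Laminin receptors went in both directions. Of 11 genes, all tested, 3 were called higher and 2 lower, where 9.06% and 8.67% of all tested genes were. The median was 0.17 on the log2 scale, but 0.06 without control 2 and 0.07 without knockout 2. ITGA3, the integrin subunit that binds α3 and α5 laminins, was at 1322 and 1280 TPM in the controls against 2391 and 2858 TPM in the knockouts (log2 fold change 1.01, SE 0.10, adjusted p = 0.014). ITGA6, the other main laminin-binding integrin subunit here, rose 1.77-fold to 46.1 ± 6.69 TPM, and the syndecan gene SDC1 1.45-fold to 331 ± 8.53 TPM. BCAM, the Lutheran receptor for α5, fell from 7.98 and 7.89 TPM to 4.26 and 3.65 TPM (adjusted p = 0.028). RPSA, the ribosomal protein also known as the laminin receptor, fell 1.26-fold. The shared subunit ITGB1 was at 331 ± 6.31 and 350.3 ± 11.4 TPM (adjusted p = 0.37), and dystroglycan, DAG1, at 59.5 ± 2.01 and 58.5 ± 0.302 TPM (0.83). ITGB4, the hemidesmosome subunit, was near 1 TPM and its groups overlapped.

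Among 19 basement membrane partners 13 were tested, of which 5 rose and 0 fell, with a median of 0.07. Of all tested genes 9.06% rose and 8.67% fell. In both controls 3 of the 13 partners were under 1 TPM. The sign of the median rests on knockout 1: without it the median was -0.16, and without knockout 2 it was 0.34. COL17A1 and COL7A1 encode collagens that anchor α3 laminin at the cell and in the stroma. COL7A1 was higher, at 38.8 and 38.4 TPM in the controls against 66.1 and 109.7 TPM in the knockouts (log2 fold change 1.12, adjusted p = 0.043). COL17A1 was at 0.866 and 0.884 TPM in the controls against 6.41 and 6.03 TPM in the knockouts, a direction that the filter fixed. Agrin, AGRN, which links laminin to dystroglycan, rose 1.61-fold to 954 ± 102 TPM, and COL4A2 rose by 0.34 on the log2 scale. FBLN1 was at 0.321 and 0.232 TPM in the controls against 1.44 and 1.52 TPM in the knockouts. Perlecan, HSPG2, was at 254 ± 4.89 and 273 ± 76.9 TPM with overlapping groups. NID1 and NID2 encode the nidogens, which tie laminin to collagen IV, and neither was tested. NID1 was at 0 in control 1 and knockout 1 and at 0.0164 and 0.0165 TPM in control 2 and knockout 2. NID2 was at 0.176 and 0.170 TPM in the controls against 1.62 and 0.685 TPM in the knockouts. COL17A1, FBLN1 and PXDN were under 1 TPM in both controls and entered the test through the knockouts, which fixed their direction. COL17A1 and FBLN1 are among the 5 called higher. With 1 TPM required in all libraries 3 partners were called higher and 0 lower, with a median of 0.05.

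Of 12 genes that process laminin or loosen the basement membrane, 9 were tested, and 6 rose and 1 fell, with a median of 0.83. The shares of all tested genes were 9.06% higher and 8.67% lower. Of the 6 processing genes that rose, PLAT and MMP9 were under 1 TPM in both controls, so the filter fixed their direction. With 1 TPM required in all libraries 4 were called higher and 1 lower, with a median of 0.70. Over all 13701 genes tested in that setting 1329 were higher and 1422 lower. Without knockout 2 the median of the list was 0.49, and without knockout 1 it was 0.78. BMP1, the proteinase that trims laminin chains, was at 37.7 and 38.6 TPM in the controls against 53.0 and 54.0 TPM in the knockouts (log2 fold change 0.48, SE 0.08, adjusted p = 0.025). MMP14, a metalloproteinase of the cell membrane, rose 2.06-fold to 578 ± 120.4 TPM. PLAT, the tissue plasminogen activator, was at 0.325 and 0.684 TPM in the controls against 8.87 and 13.6 TPM in the knockouts. PLAU rose 2.32-fold and CTSS, cathepsin S, 1.69-fold, while ADAM10 fell 1.81-fold. MMP9 was at 0.846 and 0.571 TPM in the controls against 4.29 and 6.70 TPM in the knockouts. Like PLAT it entered the test through the knockouts, so its values are given as a description.

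Genes that prepare dystroglycan or fold secreted chains were compared last. Of 13 dystroglycan glycosylation genes 11 were tested, and B3GALNT2 fell 1.78-fold while the other 10 did not pass, with a median of 0.05. Over all tested genes 17.7% were called. Without knockout 1 the median of the list was 0.07, and without knockout 2 it was 0.04. B4GAT1, whose product primes dystroglycan for elongation, had a log2 fold change of 0.45 (adjusted p = 0.062). Of 12 folding and export genes of the secretory pathway 3 rose and 0 fell, with a median of 0.18. Among all tested genes 9.06% rose and 8.67% fell. Without knockout 1 the median of these 12 genes was 0.10, and without knockout 2 it was 0.20. The 3 that rose were the chaperones CALR (1.49-fold to 3610 ± 22.8 TPM) and HSPA5 (1.34-fold) and the disulphide isomerase P4HB (1.34-fold). MIA3, whose product helps load bulky matrix proteins for export, was at 19.6 ± 2.44 and 14.4 ± 3.64 TPM (adjusted p = 0.18).

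**Figure D5:**
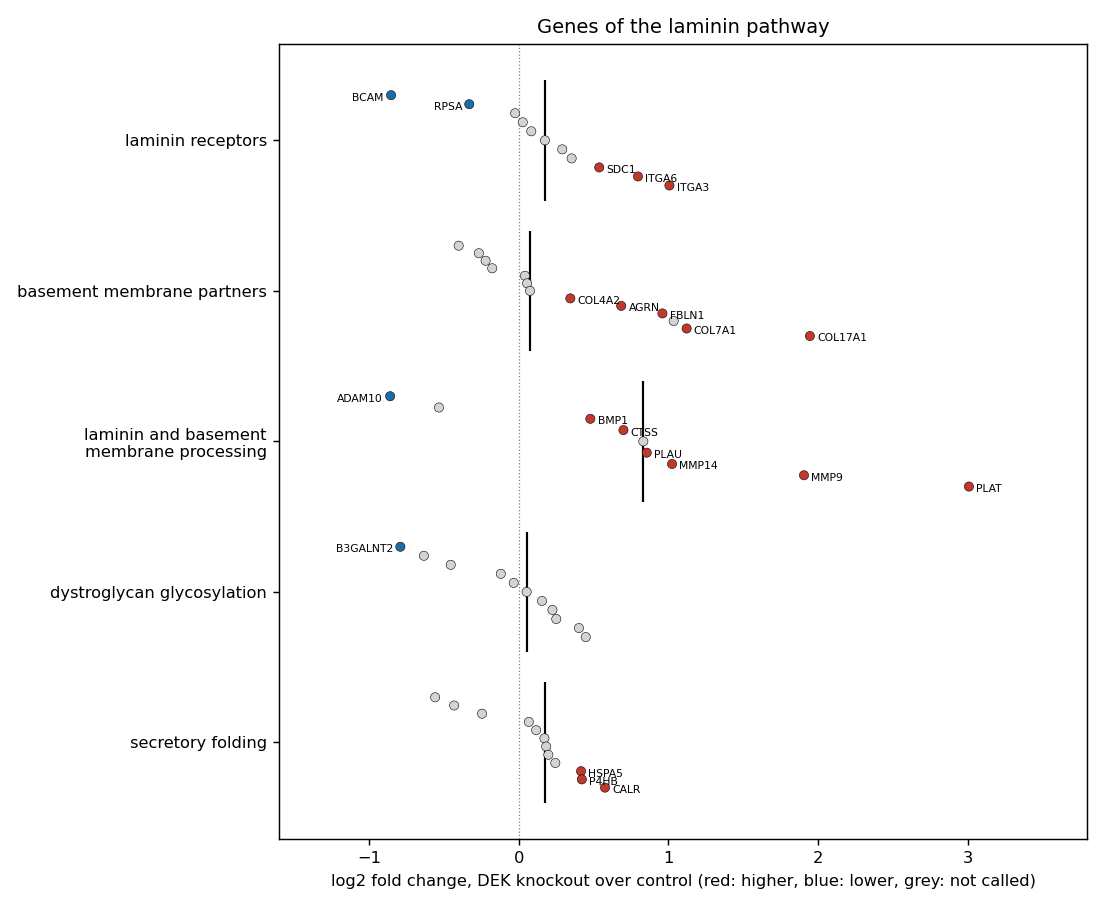
Log2 fold change of the tested members of each pathway list (points; red, called higher; blue, called lower; grey, not called) and the list median (vertical line). The processing list has the highest median, 0.83, or 0.49 without knockout 2 and 0.70 with 1 TPM required in all libraries. PLAT, MMP9 and COL17A1, farthest to the right, were under 1 TPM in both controls and entered the test through the knockouts, which fixed their direction.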

How the data were processed

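The authors deposited TPM for 59409 gene symbols in 1 table, where every library's column sums to 1000000. Without stating roles, the submitters' processing notes list DESeq2 1.36.0, featureCounts 2.0.1, cutadapt 1.18, STAR 2.7.8a and the build hg38. The sources used here do not give the annotation, the gene lengths or the use of strand. Libraries were grouped by title. Symbols were matched to GENCODE release 29 (GRCh38), 54390 by name and 2209 through older symbols. Low TPM values fall on steps worth 1 read. With that release's exon lengths the steps gave the depths, and 53.9% to 55.8% of values under 200 reads came out whole to within 0.02, so depths are approximate.

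The 15815 genes that reached 1 TPM in 2 or more libraries were fitted as log2(TPM + 1) with limma 3.58.1 in R 4.3.3, group as the only term and a trended variance prior, with Benjamini-Hochberg adjustment at 0.05 over all of them. On this scale the change of a low gene is understated. Fold values are ratios of mean TPM. The procedure was also run on simulated data in which both groups had the same spread, and no result here rests on that run. The members, lists and alternatives were chosen with earlier results of these data known. Genes named are the chains, DEK, each called list member or otherwise the smallest p-values, and the 3 genes most like the chain that changed most. The neighbours of LAMB3, overlapping genes and other uncalled list members were added after their values were seen. No set test was run. Some genes are not reported here.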

Additional observations from a re-analysis of the deposited data

How the results depend on the processing

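No chain changed direction under any alternative. With no filter on low values (31270 genes) 26 genes were called higher and 0 lower in all, 0 of them in the chains or the lists, and the adjusted p was 0.060 for LAMB3 (log2 fold change 3.54) and LAMB2 (0.57) and 0.11 for LAMA3 (-0.45). At an adjusted p under 0.01, 80 genes were higher and 10 lower in all, 0 in the chains (LAMB3 3.54, LAMB2 0.57, LAMA3 -0.45) and 0 in the lists. With one variance prior 866 were higher and 571 lower. LAMA3 was not called with pseudocount 0.1 (-0.46, adjusted p = 0.052), median ratio scaling (-0.39, 0.071), quantile normalization (-0.45, 0.059), one variance prior (-0.45, 0.092), the GC trend removed (-0.49, 0.053) or chromosome medians removed (-0.33, 0.083), which left 0 chains lower. LAMB1 passed with chromosome medians removed (0.72, adjusted p = 0.023). Median ratio scaling moved calls over all genes to 1588 higher and 955 lower, and chromosome medians removed to 1716 and 1126.

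In the lists, one variance prior left 2 basement membrane partners and 1 folding gene higher, and 1 receptor, 0 processing genes and 0 dystroglycan genes lower. With the GC trend removed 1 receptor and 0 processing genes were lower, and with median ratio scaling 0 processing genes. Requiring 1 TPM in all libraries left 3 partners and 4 processing genes higher and 2 dystroglycan genes lower. Median ratio scaling, quantile normalization and chromosome medians removed each called 1 dystroglycan gene higher. Of 84 medians under alternatives, those of the chains included, 77 moved by less than the spread between the knockouts. The 7 that moved by more were all medians of lists. The median of the partners changed sign without knockout 1, from 0.07 to -0.16, which is within that spread.

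The replicate number was also tried as a replicate block. Same-numbered libraries deviated together only weakly (r = 0.0989 across genes), so the numbers do not establish pairs. Under the block LAMB1 passed (0.64, adjusted p = 0.040), 3 partners were higher, and 2 processing and 2 dystroglycan genes were lower. Calls of the other chains did not change.

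Leaving out 1 library assumes that the lone library varies like the other group. Over the 4 fits the log2 fold change ranged from 3.01 to 4.08 for LAMB3, 0.54 to 0.59 for LAMB2, 0.39 to 0.89 for LAMB1, 0.34 to 0.85 for LAMA5, -0.57 to -0.33 for LAMA3 and -0.41 to -0.21 for LAMC1. Chains called numbered 0 to 4 higher and 0 to 2 lower, none without either control. Over all genes 44 to 2375 were higher and 1 to 3135 lower. In the lists the ranges were 0 to 4 and 0 to 2 for receptors higher and lower, 0 to 6 and 0 to 5 for partners, 0 to 5 and 0 to 2 for processing, 0 to 1 and 0 to 2 for dystroglycan glycosylation, and 0 to 5 and 0 to 3 for folding.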
